A study of Triticum turgidum with 12 samples.

Results

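Blufensin1 and a pathogenesis-related (PR) protein precursor were followed in flag leaves of durum wheat (Triticum turgidum), each through 1 probe set of the Affymetrix Wheat Genome Array. Both are 2 of the 61290 probe sets on the array and 2 of the 23 that the study lists as induced in unstressed leaves of a pale-green mutant. Their values under control conditions are therefore those that chose them, and are given as a description. The probe set for Blufensin1 is TaAffx.26815.1.S1_at and that for the PR precursor is Ta.15159.1.S1_at. No other probe set on the array shares the cluster number of either.

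The wild-type (WT) was cv. Borgia, and the mutant was MD-597, a single line derived from Borgia by sodium azide mutagenesis and backcrossed to it. Control pots were kept at full water-holding capacity, and water-stressed pots received reduced irrigation from Zadoks stage 45 onwards. Flag leaves were taken at anthesis from both genotypes, grown in the same glasshouse. The study describes a split plot, with water treatments as main plots and genotypes as subplots. Each of the 4 groups has 3 arrays, each made from pooled leaves of several plants, and the labels do not tie replicate numbers to plots.

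Blufensin1 is known from barley as a small secreted cysteine-rich peptide that restrains basal defense against powdery mildew. PR proteins are a set of unrelated families, chitinases and glucanases among them, that plants accumulate upon infection and that serve as markers of systemic acquired resistance. The study names the second member only as a PR protein precursor, after a match to a barley protein, so its family is not given here.

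The primers that the study designed to measure the Blufensin1 transcript are shown, since they are the sequences at hand for a gene described here. They are printed in lower case, 5′ to 3′, with no part marked.
Blufensin1 forward: ccgaggatggcaaagaacaactc
Blufensin1 reverse: ggaaatggttcatctcgtgcttatg
The forward primer has 23 bases with 52.2% G and C, and the reverse primer has 25 bases with 44.0%. The primer table used here lists none for the PR precursor. The amplification data were not analysed here.

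The values are deposited MAS 5.0 intensities on a linear scale, and every array has a trimmed mean of 500.3. A value near the median of its array, which lay between 50.4 and 66.4, is weak, and the 60th percentile lay between 92.3 and 117.3. The table holds no detection calls. A second yardstick was a set of 23 control probe sets for sequences that a plant sample should not hold (empty controls), whose highest value per array lay between 37.9 and 77.4 under control and between 61.5 and 103.1 under stress. Both members were above the 60th percentile on all 3 arrays of both control groups and on 0 of 3 in both stress groups. They passed the filter on low values, which kept 24590 probe sets, through the control groups where they are high. The leaf identity of the samples was checked with 7 probe sets for chlorophyll a/b-binding protein and Rubisco. Their median percentile was between 87.3 and 96.6 on every array. The lowest was the Rubisco large subunit, at 28.7 intensity units on 1 array, and none was at 0.

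Blufensin1 was highest in unstressed mutant leaves, lower in unstressed WT leaves and lowest under water stress in both genotypes. In the WT under control its intensity was 150.97, 177.1 and 174.24 in replicates 1 to 3. In the mutant under control it was 558.25, 439.6 and 865.16. Every mutant control array lay above every WT control array, and the lowest mutant value was 2.48 times the highest WT value. Groups of this comparison lay apart in the same direction for 6.88% of all kept probe sets. The mean log2 intensity was 7.38 ± 0.13 (SD, n = 3) in WT and 9.22 ± 0.50 (SD, n = 3) in the mutant, a fitted log2 difference of 1.84 (SE 0.29), or 3.57-fold. No test is given, because this contrast chose the gene.

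Under water stress Blufensin1 was 53.215, 56.064 and 59.766 in the WT. It was 81.7, 51.357 and 85.096 in the mutant. The groups overlapped, because mutant replicate 2 was the lowest of the 6 arrays while mutant replicates 1 and 3 were the highest. These intensities lay between the 45.5th and the 56.7th percentile of their arrays. They were above 19 to 23 of the 23 empty controls, and only mutant replicate 3 was above all of them, so the stress arrays held little signal over background.

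The PR precursor followed the same order of groups. In the WT under control it was 284.92, 343.7 and 227.22. In the mutant under control it was 728.43, 820.92 and 1321.2. The control groups were again apart, with the lowest mutant value at 2.12 times the highest WT value. The mean log2 intensity was 8.14 ± 0.30 (SD, n = 3) in WT and 9.85 ± 0.45 (SD, n = 3) in the mutant, a fitted difference of 1.72 (SE 0.98), or 3.29-fold, likewise given without a test.

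Under water stress the PR precursor was 38.964, 3.7922 and 39.366 in the WT. It was 53.335, 5.6405 and 94.92 in the mutant. Replicate 2 was far below the other replicates in both genotypes, and the groups overlapped over most of their range. The SD of the log2 intensities was 1.94 in WT and 2.15 in the mutant, several times that under control, and it sets most of the standard error of every fitted value of this probe set. The values spanned the 8.62nd to the 58.7th percentile of their arrays. They were above only 6 empty controls on WT replicate 2 and 7 on mutant replicate 2, and above all 23 only on mutant replicate 3, the only stress array on which the probe set passed the array median.

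**Figure D1:**
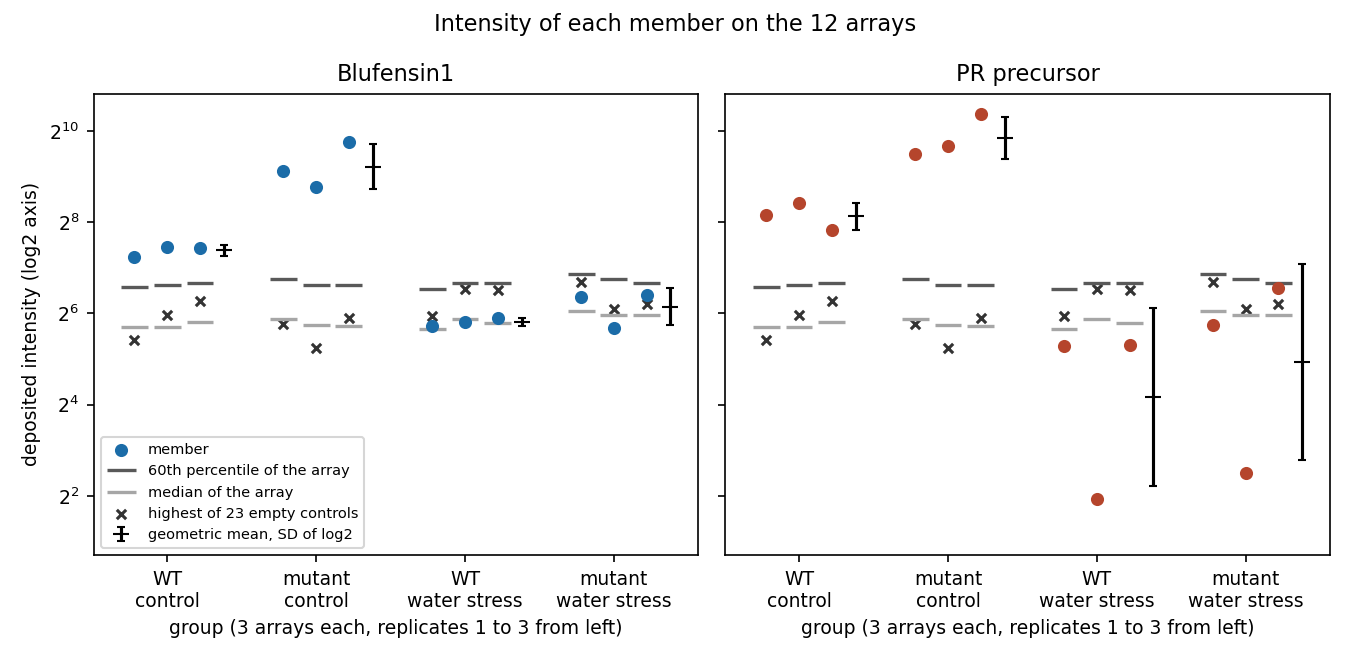
Deposited intensity (log2 axis) of Blufensin1 (left) and the PR precursor (right) on each of the 12 arrays, with the median (light bars) and the 60th percentile (dark bars) of that array, the highest of 23 empty controls (crosses) and, beside each group of 3, the geometric mean with the SD of the log2 values. Both members lie above the 60th percentile on every control array and on none of the stress arrays, and the PR precursor drops to 3.7922 and 5.6405 on replicate 2 of the stress groups.

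By group mean the order of levels of both genes was thus mutant control, WT control, mutant stress and WT stress, and the last pair overlapped.

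Water stress against control was tested in each genotype over all kept probe sets with limma, and a change was called where the adjusted p (Benjamini-Hochberg) was under 0.05 and the difference at least 2-fold. The control arrays in these tests are those on which the genes were chosen. That choice favours a fall in the mutant, where they were chosen high, and works against a fall in the WT, where they were chosen low. Both genes also passed the filter on low values only through the control groups, which favours a fall in both genotypes. The adjusted p-values correct for neither. Leaf RNA is a bulk measure, in which fewer cells with a transcript and less of it per cell cannot be told apart.

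Both genes fell under water stress in WT leaves. Blufensin1 fell by 1.57 on the log2 scale (SE 0.29, limma adjusted p = 0.00185), or 2.97-fold. The PR precursor fell by 3.97 (SE 0.98, limma adjusted p = 0.0114), or 15.6-fold. In this comparison 4.19% of the kept probe sets were called lower, and for 21.2% every stress array lay below every control array, as it did for both genes.

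Both genes fell in mutant leaves as well. Blufensin1 fell by 3.07 (SE 0.29, limma adjusted p = 1.9e-05), or 8.41-fold. The PR precursor fell by 4.92 (SE 0.98, limma adjusted p = 0.00280), or 30.2-fold. The background was 5.49% called lower and 19.3% with stress arrays all below control arrays.

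How far the PR precursor fell rests on values at or near background. With every value under its array median set to that median, which takes the weight off the lowest values, the estimated log2 difference was -2.37 (SE 0.26) in the WT and -3.66 (SE 0.26) in the mutant. For Blufensin1 the same step gave -1.55 (SE 0.25) and -2.98 (SE 0.25), but its stress values lay near the array median, so the step changed them little. With 32 added to each intensity, Blufensin1 was at -1.17 (SE 0.23) in the WT and -2.60 (SE 0.23) in the mutant. The PR precursor was then at -2.47 and -3.69. The difference of the PR precursor in the WT was -2.84 without WT stress replicate 2. In the mutant it was -3.70 without stress replicate 2 and -5.74 without stress replicate 3. All 4 falls remained called with each of the 12 arrays left out in turn. With the kind of unmoderated test that the study applied to RMA values, run here on the MAS 5.0 intensities and adjusted over all kept probe sets, only the fall of Blufensin1 in the WT stayed past the threshold.

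Measures of RNA and array quality stand beside these falls. The ratio of 3′ to 5′ signal of the control transcript glucose-6-phosphate dehydrogenase was 15.7 on WT stress replicate 2 and 15.2 on mutant stress replicate 3, and between 4.46 and 10.6 on the other arrays. Without both arrays the stress differences were -1.57 and -3.20 for Blufensin1 and -2.84 and -5.74 for the PR precursor, in WT and mutant respectively, and all were called. The mean log2 intensity of the bacterial transcripts spiked into the RNA was 8.16 to 8.63 on control arrays and 8.59 to 9.47 on stress arrays, and its part in the falls was not tested. Actin, the study's reference gene, had an intensity between 26809 and 36254 on the 12 arrays. Relative to actin the differences were -1.57 and -3.24 for Blufensin1 and -3.97 and -5.09 for the PR precursor.

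**Figure D2:**
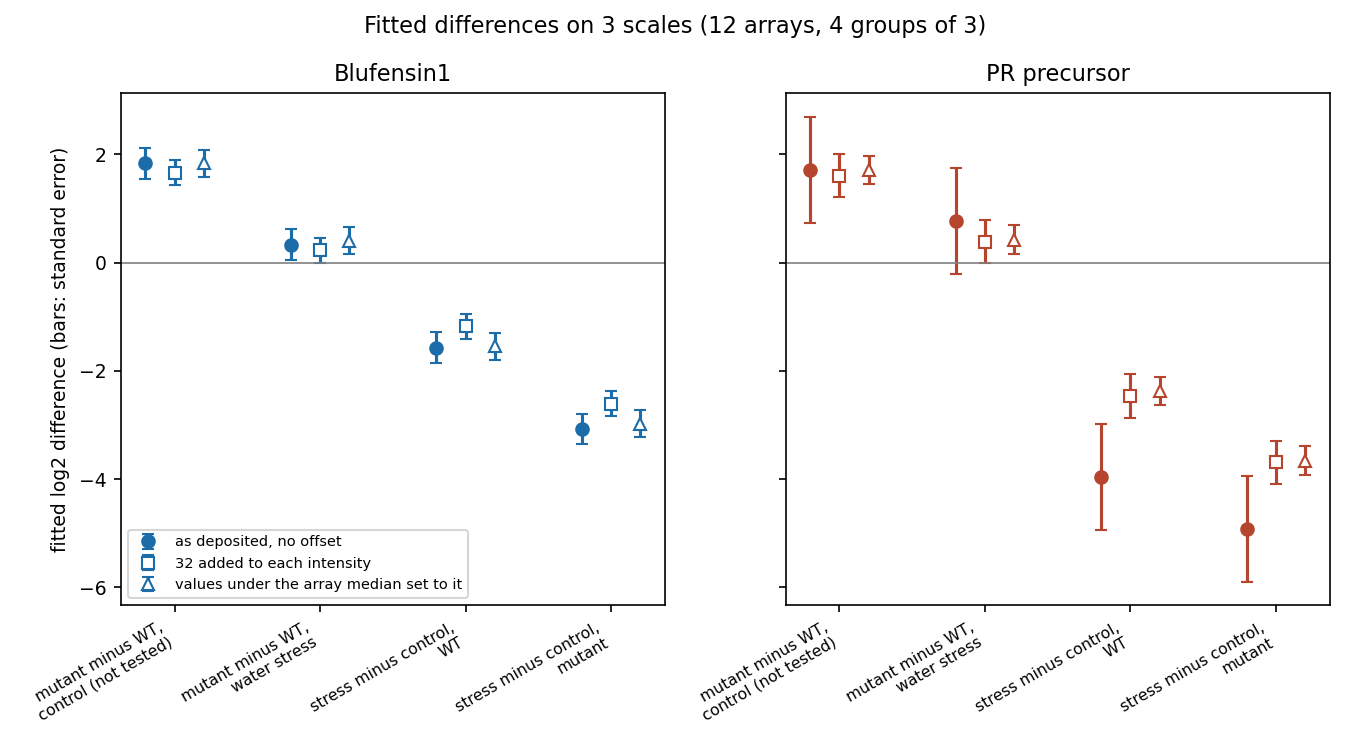
Fitted log2 differences (vertical axis, bars show the standard error) of Blufensin1 (left) and the PR precursor (right) for 4 comparisons, from the values as deposited (filled circles), with 32 added to each intensity (squares) and with values under the array median set to it (triangles). The falls lie below 0 on every scale, and that of the PR precursor in the WT goes from -3.97 to -2.37 when weak values are set to the median.

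The comparison of mutant and WT under water stress uses group means that did not choose the genes. Both genes entered it through their control values, which alone passed the filter, and the fit pools the spread of the control arrays. The mutant minus WT difference was 0.33 for Blufensin1 (SE 0.29, 95% confidence interval -0.28 to 0.95, limma adjusted p = 0.595). It was 0.77 for the PR precursor (SE 0.98, 95% confidence interval -1.35 to 2.88, limma adjusted p = 0.741). Neither was called, against 0.708% of kept probe sets called in either direction and 0.252% called higher in the mutant. The sign for the PR precursor turned when a single array was left out, from 1.98 without mutant stress replicate 2 to -0.36 without WT stress replicate 2 and -0.05 without mutant stress replicate 3. On the log2 scale, where 1 is a 2-fold difference, the interval of the PR precursor runs past 2-fold in both directions. That of Blufensin1 ends short of it in both, but its upper end of 0.95 is only just under 1. Without mutant stress replicate 2 the difference of Blufensin1 rose to 0.57 (SE 0.29), so its interval does not exclude a 2-fold difference firmly. Both genes were near background on these arrays.

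The stress difference in the mutant minus that in WT was -1.50 (SE 0.40) for Blufensin1 and -0.95 (SE 1.38) for the PR precursor on the log2 scale. This difference of responses holds the contrast that chose the genes and was not tested. For the PR precursor it turned to 0.27 without mutant stress replicate 2.

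Within the mutant groups both genes shared the highest control array and the lowest stress array. Their lowest mutant control arrays differed: replicate 2 for Blufensin1 (log2 deviation -0.44) and replicate 1 for the PR precursor (-0.34). Both were highest on mutant control replicate 3, by 0.54 above the group mean for Blufensin1 and 0.52 for the PR precursor on the log2 scale. Both were lowest among mutant stress arrays on replicate 2, at -0.47 and -2.44. In the WT stress group the PR precursor deviated from the mean by -2.25 on replicate 2 and Blufensin1 by -0.01. Mutant control replicate 3 was also the highest mutant control array for 15 of the 20 other kept probe sets of the study's induced list, with a median deviation of 0.42. Without mutant control replicate 3 the control difference was 1.57 for Blufensin1 and 1.46 for the PR precursor. Mutant stress replicate 3, with a 3′ to 5′ ratio of 15.2, was the highest mutant stress array for 13 of the 20, with a median deviation of 0.32. The same counts over all kept probe sets were not taken.

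Across the 12 arrays the log2 intensities of both genes had a Pearson r of 0.89, and the PR precursor ranked 183rd among the kept probe sets by likeness to Blufensin1. This and the following r values are descriptions over arrays that share the 4 groups, so a large part of each reflects the group means. The deviations from the group means had r = 0.55 over the 12 arrays.

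The probe set most like Blufensin1 was 1 of the pair that the study names peroxidase 10, the one whose name ends in S1_at, with r = 0.98. Peroxidases oxidise a range of substrates with hydrogen peroxide. It differed between mutant and WT by 1.83 under control and 0.25 under stress, and between stress and control by -1.55 in WT and -3.13 in the mutant, close to the values of Blufensin1 in all 4 comparisons. Next among probe sets that the study names were chitinase 3 (r = 0.97), an enzyme that cleaves fungal cell wall chitin, and the germin-like protein GLP2b (r = 0.96), of a family of cell wall proteins linked to defense in cereals. Peroxidase 10, chitinase 3 and GLP2b are on the same induced list as Blufensin1. They were thus chosen on the same control contrast, which favours likeness in it and a high r. GLP2b was higher in the mutant by 1.56 under stress, where Blufensin1 was at 0.33, a gap that was not tested. The other probe sets among the 5 most alike have no name in the study: Ta.12051.1.A1_at (r = 0.97), Ta.23366.3.A1_at (r = 0.97) and Ta.18399.1.S1_s_at (r = 0.96).

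The 5 probe sets most like the PR precursor have no name in the study. They were TaAffx.56014.2.S1_x_at (r = 0.99), Ta.23219.1.A1_x_at (r = 0.97), Ta.21349.1.S1_x_at (r = 0.97), Ta.8585.1.S1_at (r = 0.96) and Ta.21438.2.A1_x_at (r = 0.96). These ranks moved with the treatment of weak values. With values under the array median set to it, TaAffx.56014.2.S1_x_at went from rank 1 to rank 731 (r = 0.88), while Ta.21438.2.A1_x_at had r = 0.97 and was at rank 15. Among named probe sets the most alike were peroxidase 10 (r = 0.94), OPR2 (r = 0.91), a 12-oxophytodienoate reductase, and RAP2.8 (r = 0.91), a transcription factor of the RAV family. Peroxidase 10 ranked 30th before the weak values were set and 10th after.

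**Figure D3:**
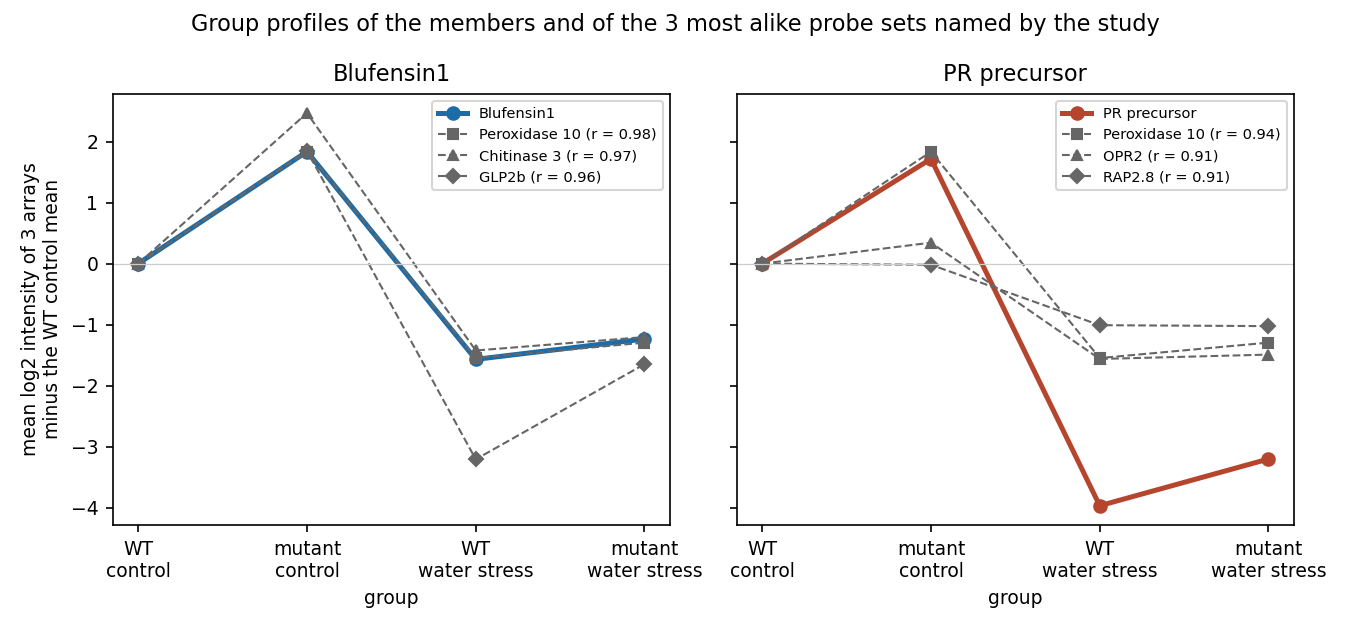
Mean log2 intensity of each group minus the WT control mean, for Blufensin1 (left) and the PR precursor (right) in colour and the 3 most alike probe sets that the study names in grey, with Pearson r over 12 arrays in the legend. The line of peroxidase 10, which was chosen on the same control contrast, lies on that of Blufensin1. OPR2 and RAP2.8 show little of the mutant control rise of the PR precursor.

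The other genes of the study's induced list were chosen on these same arrays and are hence no independent evidence. Of the 20 kept besides the members, 15 were called lower under stress in the mutant and 1 was called higher (5.49% and 3.42% of all kept probe sets), with a median log2 difference of -2.56 against 0.04 over all kept probe sets. In the WT 7 were called lower and 1 higher (4.19% and 3.07% of all kept), with a median of -1.28 against 0.01.

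The chitinases and glucanases, which are themselves PR families, gave 6 kept probe sets, of which 5 were called lower under stress in the mutant (5.49% of all kept) and 2 in the WT (4.19% of all kept). Their choice for high mutant control values favours the higher count in the mutant. Chitinase 3 fell by 3.67 (SE 0.33, limma adjusted p = 1.4e-05) in the mutant and by 1.42 (SE 0.33, limma adjusted p = 0.00760) in the WT. The probe set that the study names beta-glucanase fell by 4.74 in the mutant and fell by 3.75 in the WT, and was below the array median on all 6 stress arrays. Both peroxidase 10 probe sets were called lower in the mutant and 1 of them in the WT. Under stress GLP2b, below the array median on 2 of the 6 stress arrays, was the only one of the 20 called between genotypes. The background was 0.708% of all kept probe sets called in either direction and 0.252% called higher in the mutant. GLP2b was higher in the mutant by 1.56 (SE 0.38, limma adjusted p = 0.0482). That call was lost with the unmoderated test, which called 0 probe sets in this comparison after adjustment, against 202 at 2-fold with an unadjusted p under 0.05 and 174 called by limma. The median of the 20 was 0.48.

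**Figure D4:**
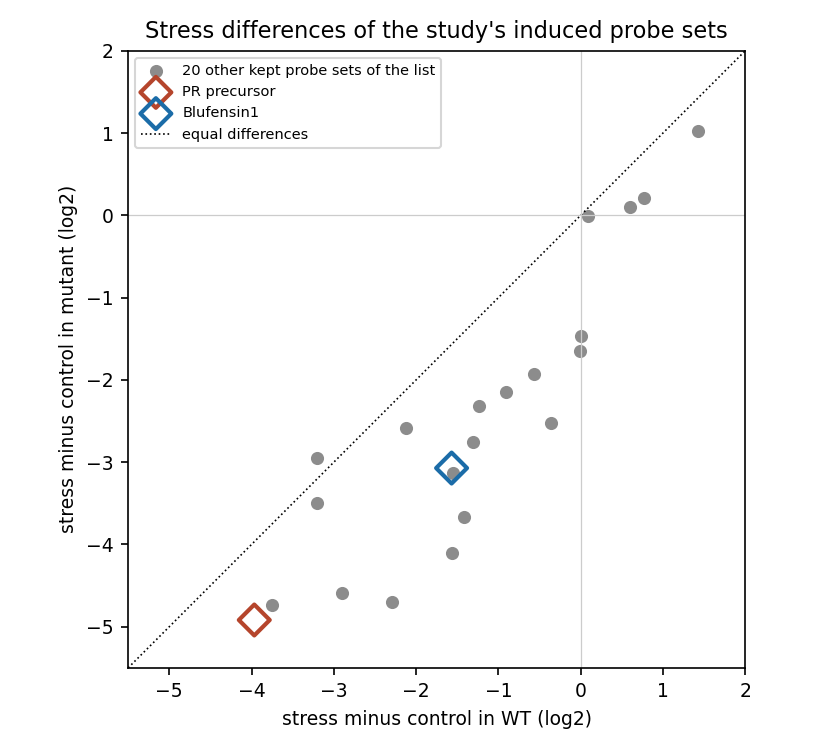
Log2 difference between stress and control in WT (horizontal) and in the mutant (vertical) for the 22 kept probe sets of the study's induced list, with Blufensin1 and the PR precursor as open diamonds and equal differences on the dotted line. The PR precursor sits at the lower left end, where stress values are near background, and the Blufensin1 diamond encloses the point of peroxidase 10. At points below the dotted line the stress difference was lower in the mutant than in the WT, a direction that choosing genes for high mutant control values favours. Some of these points rose in both genotypes.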

How the data were processed

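RNA of flag leaves from 12 samples (4 groups of 3) had been hybridized to Affymetrix Wheat Genome Arrays. The authors deposited 1 table of linear intensities, for which the submitters' processing notes name MAS5 (version not given in the sources used here). Intensities were log2 transformed with no offset. After 111 control probe sets were left out, probe sets whose value passed the array's 60th percentile in every replicate of some group were retained, 24590 in number. Group means were fitted to all kept probe sets in limma 3.58.1 (R 4.3.3), with variances moderated along an intensity trend, with Benjamini-Hochberg adjustment over these probe sets. Figures were drawn with matplotlib 3.10.9. The p-values measure the spread between pooled-leaf samples, and 3 arrays per group limit the precision. The main fit took no account of the split plot.

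The members, lists and tests were chosen with earlier results of these data known. Named were the members, the 5 kept probe sets and the 3 named by the study with the highest r to each, the actin reference and examples of the study's induced list. A list of PR families by gene description could not be formed: the platform annotation lists 1273 probe sets by symbol, neither member among them. Genome positions, promoters and proteins were not used here. Alternatives covered normalization, filters, offset, trend, array weights, the methods' t-test (which the study ran on RMA values with detection calls, here run on MAS5 intensities), replicate block and single arrays left out. Added after seeing the data were weak values set to the array median and leaving out both arrays with a high 3′ to 5′ ratio.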

Additional observations from a re-analysis of the deposited data

How the results depend on the processing

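The control difference and both stress differences kept their direction for both genes under all alternatives run. The falls under stress were called in every alternative except the methods' t-test (Welch, here on MAS5 in place of RMA values, Benjamini-Hochberg adjusted), where the fall of Blufensin1 in the mutant (-3.07, adjusted p = 0.0678) and those of the PR precursor in the WT (-3.97, adjusted p = 0.216) and the mutant (-4.92, adjusted p = 0.197) were not. Over the 13 alternatives other than single arrays left out, adjusted p began at 7.7e-07, 4.1e-05 and 1.6e-06 for these 3 falls, and that of Blufensin1 in the WT ran from 0.000689 to 0.0426.

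The mutant minus WT difference of the PR precursor under stress was -1.46 with array weights and -1.18 without WT stress replicate 2 and mutant stress replicate 3 together. With single arrays left out it ranged from -0.36 to 1.98, and that of Blufensin1 from 0.20 to 0.57. The difference of responses was -1.93 for Blufensin1 with array weights, and for the PR precursor -3.26 with array weights and -2.89 without both arrays. It ranged from -2.07 to 0.27 with single arrays left out. The causes were not tested. The fit to only the arrays compared gave no value under stress between genotypes, because neither gene passed the filter there.

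Over all kept probe sets, 174 were called between genotypes under stress, against 6 with only those arrays, 479 with array weights, 0 by the t-test (202 at 2-fold with an unadjusted p under 0.05), 291 without WT stress replicate 2, 75 without WT stress replicate 3, 286 without mutant stress replicate 3 and 482 without both. The t-test called 213 in the WT and 77 in the mutant under stress, against 1787 and 2191. Arrays with the same replicate number shared no clear deviations over all kept probe sets: 18 correlations ran from -0.19 to 0.089. With 3 arrays per group these cannot tell whether the samples were paired in the split plot. The PR precursor was low on replicate 2 of both stress groups, and a replicate block lowered the SE of its falls from 0.98 to 0.80. With a replicate block the falls were 1.57 and 3.07 for Blufensin1 and 3.97 and 4.92 for the PR precursor, the differences between genotypes under stress were 0.33 and 0.77, and no call on either gene changed. Weak signal on the stress arrays limits every value there.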
